A study of Mus musculus with 6 samples.

Results

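The genes described here are 36 targets of hypoxia-inducible factor (HIF) and glycolytic genes in mdx myoblasts, out of 47069 genes in the count table. They were picked by symbol, with the comparison of PSB-KD107 and vehicle in these libraries already known. Each difference between the groups is therefore given as a description. The 36 genes comprised 17 glycolytic enzymes, counting the bifunctional regulators Pfkfb3 and Pfkfb4, and 19 other members. All 36 had enough counts to be tested, as had 14165 genes of the table.

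Myoblasts were muscle stem cells purified by cell sorting from dystrophic mdx mice, which lack functional dystrophin, and then expanded in culture with serum and FGF2. Both groups carried this mutation, and no cells from healthy mice are analysed here. One group received PSB-KD107, a synthetic agonist of the receptor Gpr18, at 10 µM, and the other vehicle. The sample records give a treatment of 2 days, the study's text an overnight one. There were 3 libraries per group. The study says that the myoblasts came from 3 different mice, so that cells of 1 mouse may be in both groups. Their strain and age are not given in the sources used here (the mice injected in the study were males on a C57BL/10 background). Count columns carry the numbers 1, 2 and 4 in each group, and no source says that libraries with the same number came from the same mouse.

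HIF is a transcription factor made of an oxygen-regulated alpha subunit, encoded by Hif1a or Epas1, and a constitutive beta subunit, Arnt. In oxygen, the prolyl hydroxylases Egln1, Egln2 and Egln3 mark the alpha subunit for destruction through Vhl. When oxygen is low, or when growth factor signaling raises the alpha subunit, HIF binds a short DNA motif, the hypoxia response element, and turns on glucose uptake, glycolysis, angiogenic factors and some of its own brakes. Cultured myoblasts use glycolysis while they proliferate and rely more on mitochondria as they fuse.

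The core of that element was searched on both strands in RefSeq promoter windows of 300 bases (250 before and 50 after each start, GRCm38.p6). Of the members, 34 had an entry, and Ndrg1 and Bhlhe40 were not matched. A window with ACGTG was found for 25 of the 34 (73.5%), against 29.2% of the 10144 tested genes with an entry and 21.8% of all 27025 genes with a promoter entry. Among the enzymes 11 of 17 held ACGTG, and among the other members 14 of 17. The variant GCGTG was less selective, with 67.6% of the members and 56.3% of the tested genes. The median GC content was 63.3% in the members' windows and 60.7% in those of tested genes. A gene with several windows has more chances of a match. Counted per window, ACGTG was in 52.7% of the members' 55 windows and in 24.9% of the 13021 windows of tested genes. The members were named as HIF targets or glycolytic genes, so these shares describe the choice, and a match is not evidence of binding.
Stretches from 5 members are shown because they place the letters of the motif close to the start of a regulator (Hif1a), 2 targets outside glycolysis and 2 enzymes. Capitals mark every ACGTG or GCGTG read on either strand (CACGT and CACGC are the other strand, and CACGTG reads as ACGTG on both).
Hif1a: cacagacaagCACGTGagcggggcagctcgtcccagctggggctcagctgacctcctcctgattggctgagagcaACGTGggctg
Bnip3: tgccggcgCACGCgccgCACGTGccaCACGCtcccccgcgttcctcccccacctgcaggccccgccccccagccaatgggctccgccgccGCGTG
P4ha2: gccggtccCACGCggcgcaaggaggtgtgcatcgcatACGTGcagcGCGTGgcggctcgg
Pgam1: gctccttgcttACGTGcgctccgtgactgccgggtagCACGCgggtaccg
Ldha: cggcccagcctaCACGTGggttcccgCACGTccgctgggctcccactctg
The Hif1a stretch is chr12:73907722-73907806 on the plus strand, from 145 to 61 bases before a RefSeq start. That of Bnip3 is chr7:138909537-138909631 on the minus strand, 125 to 31 bases before the start, and it holds 5 matches, the most of these stretches. P4ha2 is shown at chr11:54100809-54100868, Pgam1 at chr19:41911746-41911795 and Ldha at chr7:46845744-46845793, each on the plus strand. None of the 5 overlaps an exon of its own gene in GENCODE M21. The stretches of Bnip3 and Pgam1 lie outside the gene as GENCODE draws it, and the other 3 lie inside its span, between exons.

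Depth ran from 30917613 counts (treated library 2) to 48756794 (treated library 1), so that 3 counts, taken as the floor, were worth 0.0596 to 0.0962 CPM (counts scaled to a common library size with TMM factors). Libraries expressed the myoblast markers Des, Itga7, Myod1 and Pax7, and 8 of 8 markers of the list passed the filter. The list summed to 6530 to 7033 CPM, but single markers were uneven. In libraries 1, 2 and 4, Myf5 read 3.57, 18.6 and 21.3 CPM in vehicle and 4.23, 40.9 and 26.8 CPM in treated cells. Cdh15 read 637, 1183 and 1373 CPM in vehicle and 600, 1214 and 572 CPM in treated cells. Leukocyte and endothelial markers summed to 1.68 to 6.94 CPM, Ptprc was at 0 or 1 count in each library, and Adgre1 was at 0. The cultures were not uniform, and other marker lists also differed between libraries, in orders of their own. Markers of cycling cells summed to 263 CPM in vehicle library 1, against 93.6 and 77.8 CPM in vehicle libraries 2 and 4 and 157, 83.7 and 131 CPM in treated libraries 1, 2 and 4. All 9 of these markers were highest in vehicle library 1 among the vehicle libraries, against 44.2% of all genes. Markers of fibro-adipogenic progenitors summed to 10.7 CPM in treated library 4 and to 1.86 to 6.58 CPM elsewhere. Most of the sum in treated library 4 was Ly6a, with 8.36 CPM, and the other markers of the list were divided there. Pdgfra was at its highest (1.46 CPM) and Dcn at its lowest (0.028 CPM, against 0.52 to 1.25 CPM elsewhere). Cd34, at 0.77 CPM, lay inside its vehicle range. Differentiation markers summed to 31239 to 40787 CPM in vehicle and 26423 to 32245 CPM in treated cells. Of these, 2 of 9 (Myog and Myh3) were lower without overlap, as was 1 of the 8 myoblast markers (Pax7), against 6.59% of all genes. As CPM per kilobase of exon, vehicle means of differentiation markers ran from 62.0 (Mef2c) to 3929 (Acta1). Those of myoblast markers ran from 5.04 (Vcam1) to 838 (Des), and those of cycling markers from 1.03 (Aurkb) to 15.6 (Pcna). The cultures thus carried abundant transcripts of differentiating muscle beside those of myoblasts, and few of cycling cells. What these lists contributed to the members' values was not tested. In bulk RNA, fewer cells of a type and less RNA per cell cannot be told apart.

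Most of the glycolytic genes and HIF targets had higher mean levels in PSB-KD107-treated myoblasts, but unevenly across libraries. Of the 36 genes 34 had a positive log2 fold change, against 49.9% of all genes tested. The median log2 fold change was 1.00 over the members and 0.00 over all genes. Across the whole table, edgeR's quasi-likelihood test called 0 genes at an adjusted p under 0.05 (0% of the genes tested) and thus 0 members, with a smallest adjusted p of 0.184 among the members for Vegfa. At an unadjusted p under 0.05 the test gave 10 members as higher, against 6.47% of all genes. DESeq2 called 7 members as higher at an adjusted p under 0.05, against 2.46% of all genes. These were Hif1a, Vegfa, Ndrg1, Hk1, Hk2, Pfkfb3 and Aldoc. For any single gene, the smallest two-sided p that an exact permutation of 3 libraries against 3 can give is 0.1.

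Library by library, the members separated the 3 treated cultures. Treated library 4 exceeded every vehicle library for 31 of the 36 members, against 33.8% of all genes. In treated library 1 the count was 29, against 29.8% of all genes, and in treated library 2 it was 8, against 27.5% of all genes. Treated library 4 was the highest of the 6 libraries for 29 members, against 25.7% of all genes. The 6 vehicle and treated libraries did not overlap for 7 members, all higher in treated cells, against 9.2% of all genes higher without overlap. None was lower without overlap, against 6.59% of all genes. The vehicle libraries were uneven as well. Vehicle library 1 was the highest of the vehicle libraries for 30 members, against 44.2% of all genes, and at least 2-fold above the mean of the other vehicle libraries for 13 members, against 10.1% of all genes.

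**Figure D1:**
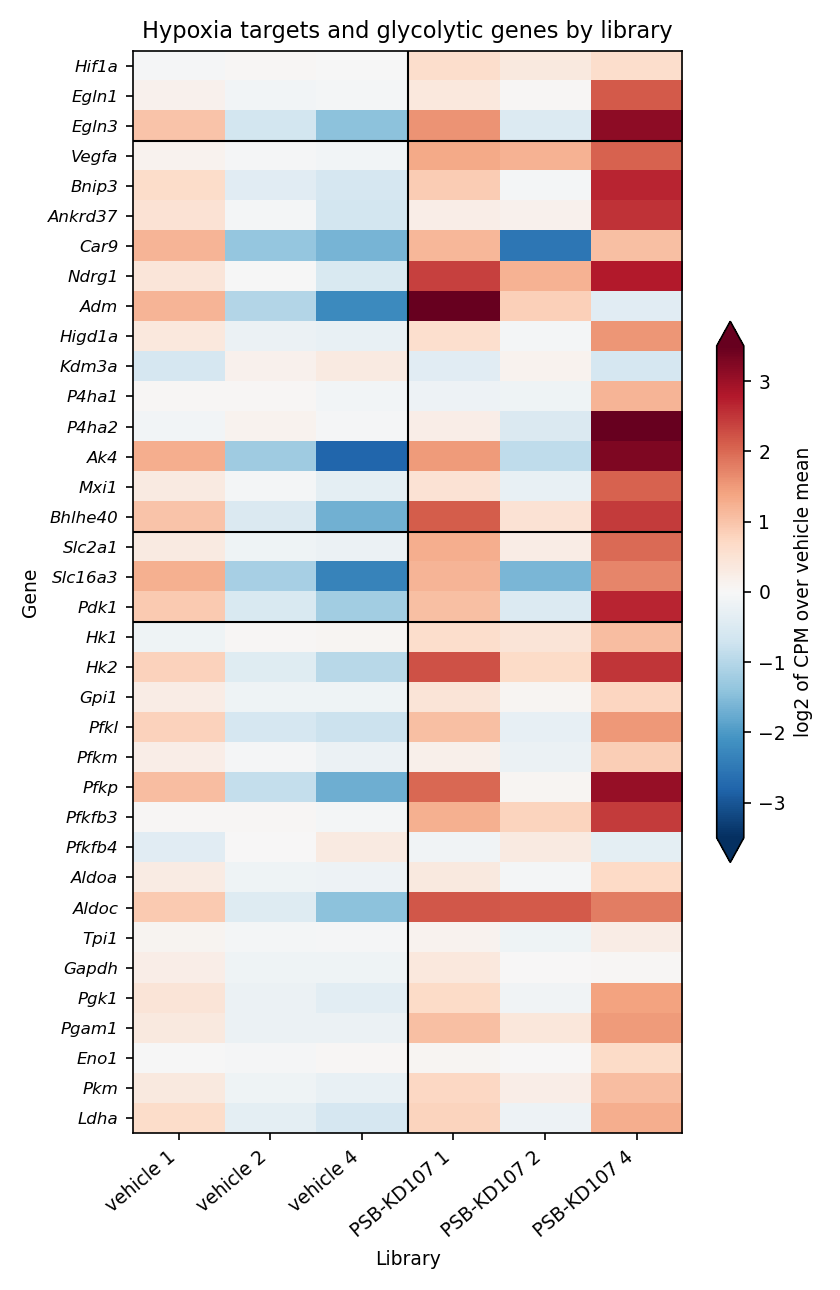
Heat map of the 36 members (rows, grouped as regulators, HIF targets, glucose and pyruvate genes, and glycolytic enzymes) in the 6 libraries (columns), with color for the log2 of CPM over the mean of the vehicle libraries. Red is above and blue below that mean, and colors saturate at the ends of the bar. The column of PSB-KD107 library 4 is the reddest, library 2 is pale for most rows, and vehicle library 1 is redder than vehicle libraries 2 and 4 for 30 members.

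Among the regulators, Hif1a was even across the vehicle libraries, and the hydroxylases Egln1 and Egln3 had their highest value in treated library 4. Hif1a, the alpha subunit itself, stood at 123, 129.6 and 125 CPM in vehicle libraries 1, 2 and 4 and at 194, 159.7 and 191 CPM in treated libraries 1, 2 and 4. Its groups did not overlap, the spread within vehicle was an SD of 3.54 CPM, and the log2 fold change of 0.53 (SE 0.11) was the smallest of the 7 members without overlap. Egln1 (PHD2), the main hydroxylase that marks the alpha subunit in most cells, read 69.8, 58.7 and 59.3 CPM in vehicle and 80.5, 64.7 and 275 CPM in treated cells. Here treated library 4 alone stood far above the rest, and treated library 2 lay inside the vehicle range. The log2 fold change of 1.16 (SE 0.56) became 0.21 without treated library 4. Egln3 (PHD3), a hydroxylase that HIF itself induces, varied more within vehicle, with 117, 37.9 and 21.7 CPM, and read 175, 42.3 and 519 CPM in treated cells. Vehicle library 1 exceeded treated library 2, so the groups overlapped. The log2 fold change of Egln3 was 2.06 (SE 1.01), but 0.89 without treated library 4 and 3.04 without vehicle library 1.

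Among targets outside glycolysis, the secreted angiogenic factor Vegfa was the most even. It read 54.5, 48.9 and 46.8 CPM in vehicle and 126, 117 and 210.4 CPM in treated cells, with a log2 fold change of 1.59 (SE 0.24). Each treated library was at least 2-fold above the vehicle mean, and Vegfa kept a log2 fold change of 1.28 without treated library 4. Ndrg1, a stress-responsive gene whose product restrains growth, had the largest fitted change of the members. Its values were 13.8, 10.1 and 7.07 CPM in vehicle and 54.1, 23.8 and 70.3 CPM in treated cells, for a log2 fold change of 2.26 (SE 0.45). The lowest treated library was above the highest vehicle library for Ndrg1 as it was for Vegfa.

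A second pattern was a large fitted difference that fell when 1 treated library was left out. P4ha2, a collagen prolyl 4-hydroxylase subunit, was even in vehicle at 11.8, 13.8 and 12.4 CPM and read 14.9, 9.01 and 152 CPM in treated cells. Its log2 fold change of 2.20 (SE 1.07) was -0.08 without treated library 4. Ak4, an adenylate kinase of mitochondria, went from 18.2 through 3.15 to 1.09 CPM in vehicle libraries 1, 2 and 4 and read 21.02, 4.04 and 71.8 CPM in treated cells. For Ak4 the spread within vehicle was itself wide, and vehicle library 1 matched treated library 1. The fitted log2 fold change of 2.11 (SE 1.32) was 0.75 without treated library 4 and 3.92 without vehicle library 1. Adm, the precursor of the vasodilator adrenomedullin, was close to the floor, with 26, 5 and 2 counts in vehicle libraries 1, 2 and 4 and 165, 16 and 8 counts in treated libraries 1, 2 and 4. Most counts of Adm came from treated library 1, and its fitted log2 fold change of 2.19 (SE 1.24) was 0.28 without that library and 3.67 without vehicle library 1.

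The remaining targets were the mitophagy receptor Bnip3, Ankrd37, the carbonic anhydrase Car9, the mitochondrial protein Higd1a, the histone demethylase Kdm3a, P4ha1, the MYC antagonist Mxi1 and the transcriptional repressor Bhlhe40. Their log2 fold changes ran from -0.26 for Kdm3a to 1.90 for Bhlhe40, and the treated and vehicle libraries overlapped for each. In treated library 4, 7 of these 8 exceeded the vehicle mean by 2.06-fold (Car9) to 6.29-fold (Bnip3). In treated library 2 their range was 0.17-fold (Car9) to 1.42-fold (Bhlhe40). Kdm3a went the other way, and is named after its values were seen. It was lowest in vehicle library 1 (135 CPM) and treated library 4 (136 CPM), the libraries in which most members were high in their group, and reached 251 CPM in vehicle library 4.

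Genes that bring in glucose or settle its fate ranked the libraries in a similar way. Slc2a1 (GLUT1), the basal glucose transporter, read 63.8, 45.7 and 44.0 CPM in vehicle and 124.2, 61.3 and 201 CPM in treated cells. Treated library 2 fell just below vehicle library 1 for Slc2a1, which was the only overlap, and the log2 fold change of 1.33 (SE 0.43) was 0.86 without treated library 4. Pdk1, the kinase that holds pyruvate back from the mitochondria by inhibiting pyruvate dehydrogenase, read 106, 38.5 and 24.1 CPM in vehicle and 116, 40.6 and 357 CPM in treated cells. Its library 1 values and its library 2 values each lay close together across the groups, and only treated library 4 stood apart. Slc16a3 (MCT4), which exports lactate, ranged from 2.14 to 25.3 CPM in vehicle and from 3.53 to 34.9 CPM in treated cells, with a log2 fold change of 0.96 (SE 1.11) that was 0.39 without treated library 4 and 2.60 without vehicle library 1.

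At the entry to glycolysis, both hexokinases were higher in treated cells. Hk1, the constitutive form, read 140.5, 161 and 164 CPM in vehicle and 239, 214 and 330.5 CPM in treated cells, without overlap and with a log2 fold change of 0.75 (SE 0.18). Hk2, the inducible form of muscle, read 89.6, 38.6 and 26.2 CPM in vehicle and 241, 82.4 and 293 CPM in treated cells. For Hk2 the log2 fold change was larger at 2.00 (SE 0.63), yet treated library 2 stayed below vehicle library 1. Pfkfb3, whose product makes the strongest activator of phosphofructokinase, was even in vehicle at 8.78, 8.68 and 8.03 CPM and read 20.0, 14.5 and 46.3 CPM in treated cells. Its groups did not overlap, and the log2 fold change of 1.67 (SE 0.44) was 1.02 without treated library 4. Pfkfb4, a related enzyme with more phosphatase activity, was named after its values were seen as the other member that was lower. It ranged from 8.55 to 13.8 CPM in vehicle and from 8.75 to 13.9 CPM in treated cells, a log2 fold change of -0.03.

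Phosphofructokinase, the committed step, is encoded by 3 members. The muscle form Pfkm read 502, 416 and 369.9 CPM in vehicle and 486, 371 and 785 CPM in treated cells. Only treated library 4 lay above the vehicle range, and the log2 fold change of 0.35 (SE 0.29) was -0.00 without it. The liver form Pfkl read 185, 70.8 and 63.0 CPM in vehicle and 219, 87.3 and 305 CPM in treated cells. Pfkp, the platelet form, read 34.4, 9.05 and 4.93 CPM in vehicle and 65.4, 16.9 and 134 CPM in treated cells, with a log2 fold change of 2.16 (SE 0.97) that was 1.35 without treated library 4 and 3.36 without vehicle library 1. Both Pfkl and Pfkp were highest of the vehicle libraries in library 1, which exceeded treated library 2.

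Further down the pathway, 3 of the abundant enzymes differed in how far they stood from vehicle. Gapdh, often used as a reference gene, read 3829, 2941 and 2945 CPM in vehicle and 4149, 3252 and 3355 CPM in treated cells, a log2 fold change of 0.15 (SE 0.18). Vehicle library 1 was above treated libraries 2 and 4 for Gapdh, so its groups overlapped. Pkm, the pyruvate kinase of muscle and proliferating cells, read 2146, 1515 and 1410 CPM in vehicle and 2802, 1977 and 3591 CPM in treated cells, with a log2 fold change of 0.72 (SE 0.27). Ldha, which turns pyruvate into lactate, read 1449, 734 and 617 CPM in vehicle and 1601, 832 and 2238 CPM in treated cells. Its log2 fold change of 0.74 (SE 0.46) was 0.38 without treated library 4 and 1.20 without vehicle library 1. Pkm and Ldha thus stood further above vehicle than Gapdh in treated library 4, at 2.12-fold and 2.40-fold of the vehicle mean against 1.04-fold.

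The 2 members of the lower pathway without overlap were not the abundant ones. Pgam1, a phosphoglycerate mutase, read 67.4, 46.0 and 45.6 CPM in vehicle and 109.5, 69.2 and 147 CPM in treated cells, and its highest vehicle library was just under its lowest treated one. The log2 fold change of Pgam1 was 1.04 (SE 0.31). Aldoc, the aldolase of brain, was low, with 3.19, 1.23 and 0.62 CPM in vehicle and 7.59, 7.38 and 5.83 CPM in treated cells. Aldoc was about level across the 3 treated libraries, and its log2 fold change was 2.04 (SE 0.60). Gpi1, Aldoa, Tpi1, Pgk1 and Eno1 overlapped between groups, with log2 fold changes from 0.08 for Tpi1 to 0.78 for Pgk1. Many glycolytic enzymes have processed pseudogenes, and the counting program is not given in the sources used here, so their counts may be split between near-identical copies.

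The enzymes and the other members were compared as lists, by their counts and medians and with no test. Fitted log2 fold changes had a median of 0.74 over the 17 enzymes, 16 of them positive, and of 1.42 over the 19 other members, 18 of them positive. Relative to the vehicle mean, the enzymes' median was 0.67 in treated library 1, 0.06 in treated library 2 and 1.09 in treated library 4. The other members' medians were 1.05, -0.07 and 2.07 in the same libraries. Treated library 2 was thus near 0 for both lists, and the other members were above the enzymes in treated libraries 1 and 4. Within vehicle, library 1 had medians of 0.28 for the enzymes and 0.41 for the other members, and library 4 of -0.22 and -0.55. The medians over all genes tested lay between -0.02 and 0.00 in every library. Without treated library 4 the fitted medians were 0.38 for the enzymes and 0.48 for the other members. The number of members at or above a 2-fold difference in either direction went from 18 to 8. How that number moved over all genes was not counted.

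**Figure D2:**
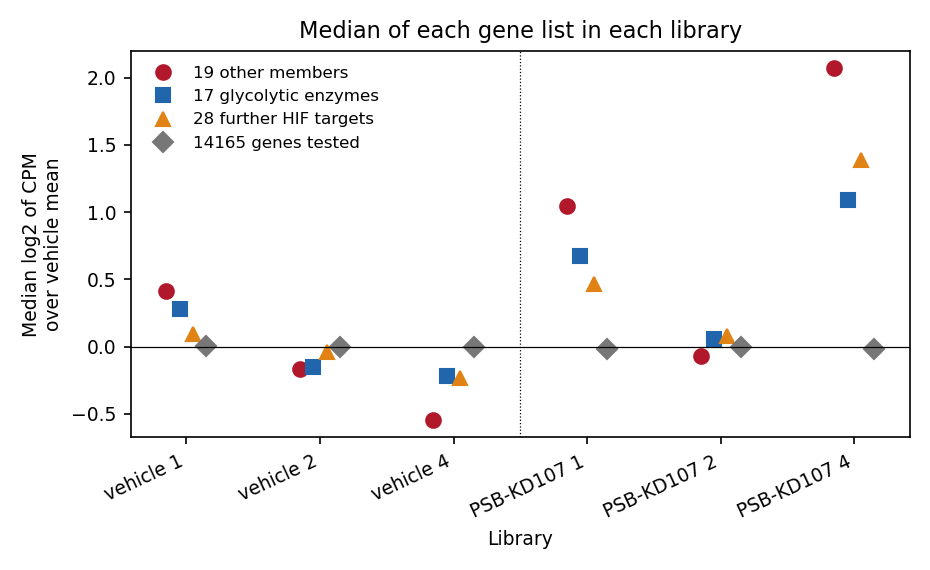
Median log2 of CPM over the vehicle mean (y axis) in each library (x axis) for the 17 glycolytic enzymes, the 19 other members, 28 further HIF targets and all 14165 genes tested. The other members reach 2.07 and the enzymes 1.09 in PSB-KD107 library 4, both are within 0.07 of 0 in PSB-KD107 library 2, and all genes stay near 0.

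Each treated library was also set against the vehicle library of its own number. For number 1, the median log2 ratio was 0.24 over the enzymes and 0.23 over the other members, and 7 members were at least 2-fold higher, against 3.45% of all genes. These were Vegfa, Ndrg1, Adm, Bhlhe40, Hk2, Pfkfb3 and Aldoc. For number 2, the medians were 0.30 and 0.16, with 6 members at least 2-fold higher, against 3.03% of all genes. Number 2 gave Vegfa, Ndrg1, Adm, Bhlhe40, Hk2 and Aldoc, which were all among the genes of number 1. For number 4, the medians were 1.35 over the enzymes and 2.67 over the other members, and 28 members were at least 2-fold higher, against 14.5% of all genes. Ratios for number 4 reached 23.9 for Egln3, 27.2 for Pfkp and 66.1 for Ak4, each with its vehicle library 4 value the lowest of the 6. Adm counts among the 28 but rests on 8 counts against 2. The 2 lists therefore lay close together in numbers 1 and 2 and apart in number 4 only. The numbers name libraries, and a different pairing would give other ratios. As an example, vehicle library 1 already stood above the mean of vehicle libraries 2 and 4 by a median log2 of 0.45 over the enzymes and 0.68 over the other members.

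**Figure D3:**
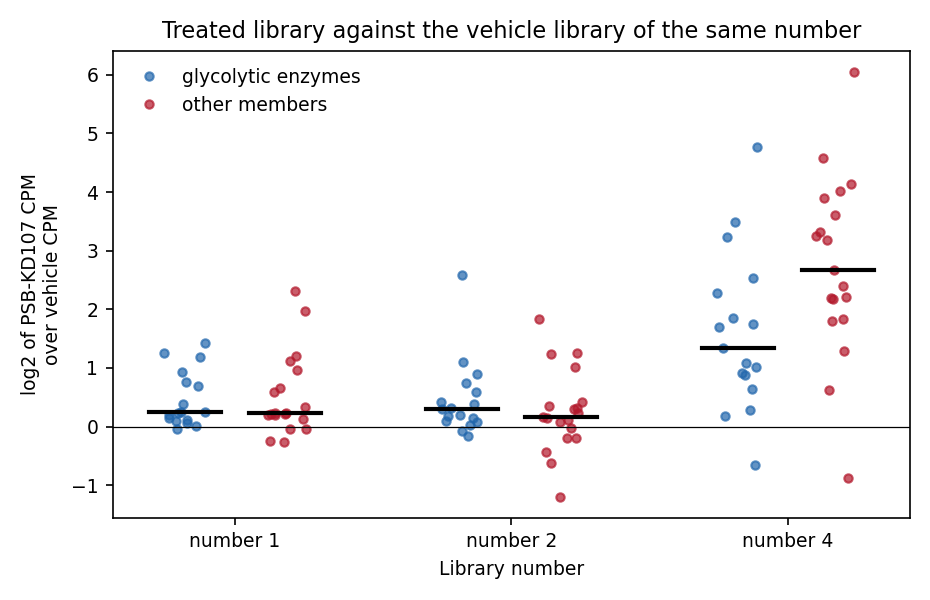
Log2 ratio of the PSB-KD107 library to the vehicle library of the same number (y axis) for numbers 1, 2 and 4 (x axis), each point a member and each black bar a list's median. The medians are 0.24 and 0.23 for number 1, 0.30 and 0.16 for number 2, and 1.35 and 2.67 for number 4 (enzymes, then other members). Points are spread sideways for legibility.

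Levels between genes were compared per length, as CPM per kilobase of exon (FPKM), computed from the counts. In vehicle, Aldoa was the highest member at 1094 ± 205 FPKM (SD, n = 3), followed by Gapdh at 783 ± 123.7 and Tpi1 at 492 ± 30.9. Pkm (338 ± 79.6), Ldha (282 ± 136) and Eno1 (225 ± 6.63) came next, and neighbours among these 3 differed by less than the larger SD. Beneath these were Pgk1, Gpi1 and Pfkm, so that the 9 highest members were enzymes. The highest of the other members were Bnip3 at 50.9 ± 25.5 and P4ha1 at 50.6 ± 2.96 FPKM, which could not be ordered. Hif1a, at 21.3 ± 0.60 FPKM, was in the middle of the list. Aldoc (0.51 ± 0.41 FPKM) and Adm (0.18 ± 0.20 FPKM) were the lowest. Together the members took 1.79, 1.35 and 1.30% of all counts in vehicle libraries 1, 2 and 4 and 2.11, 1.505 and 2.58% in treated libraries 1, 2 and 4, with 95% Wilson intervals within 0.0051 percentage points, which cover counting error only. The other members alone took 0.0921 to 0.129% in vehicle and 0.177, 0.116 and 0.370% in treated libraries 1, 2 and 4, of which library 2 lay inside the vehicle range.

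**Figure D4:**
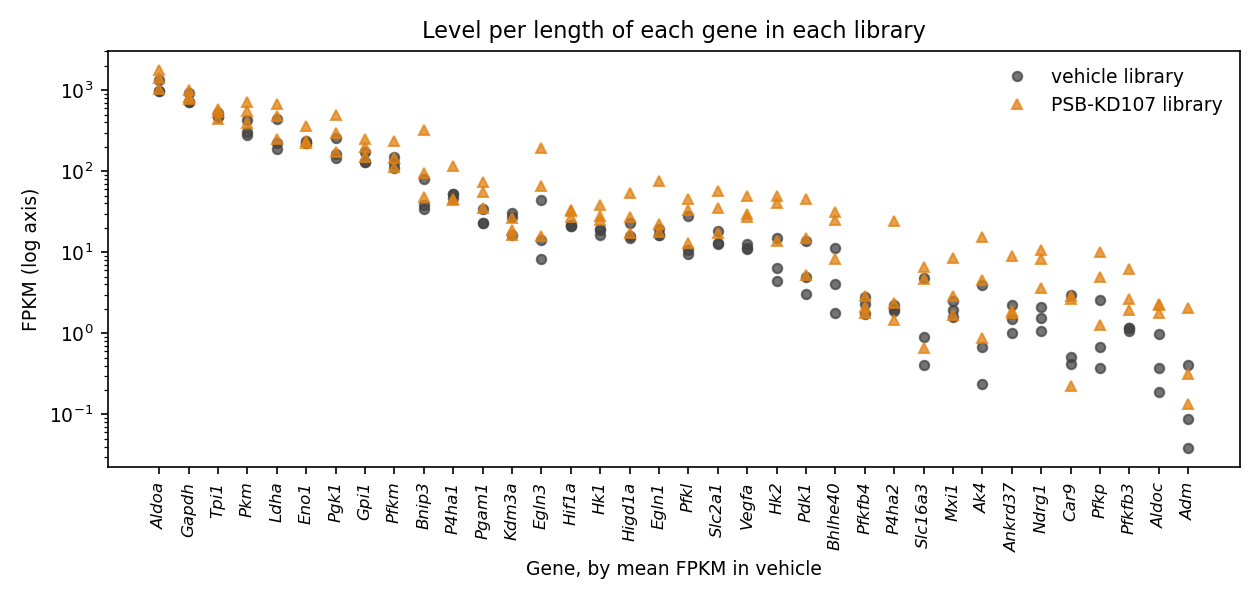
FPKM of each member (log axis) in the 3 vehicle libraries (gray circles) and the 3 PSB-KD107 libraries (orange triangles), ordered by the mean of the vehicle libraries. The enzymes from Aldoa (1094 FPKM on average in vehicle) to Pfkm hold the left end and Adm, at 0.18 FPKM, the right. Spread differs between genes at similar levels, as Hif1a runs from 20.8 to 33.0 FPKM and Egln3 from 8.17 to 195 FPKM.

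Within pairs of related enzymes the balance moved as well. The shares used merged exons, which were 8532 bases for Hk1 and 5969 for Hk2, against 4278 and 5513 in the longest transcripts. Another length would shift the level of a share, and so which form leads, but not the order of the libraries within a pair. Hk2 made up 47.7, 25.5 and 18.6% of the summed FPKM of Hk1 and Hk2 in vehicle libraries 1, 2 and 4, and 59.0, 35.5 and 55.9% in treated libraries 1, 2 and 4. Pfkfb3 made up 39.8, 33.4 and 27.3% of its pair with Pfkfb4 in vehicle and 56.0, 40.3 and 77.3% in treated cells, so that its lowest treated share was just above its highest vehicle share. Egln3 overtook Egln1 in some libraries of both groups, at 69.4, 46.5 and 33.1% in vehicle and 74.6, 46.9 and 71.8% in treated cells. P4ha2 stayed between 3.07 and 5.13% of its pair with P4ha1 in all libraries but treated library 4, where it reached 17.4%. The lactate dehydrogenase subunit Ldhb, which is no member, took 7.78, 22.6 and 26.6% of its pair with Ldha in vehicle and 9.53, 27.3 and 8.05% in treated cells, and was lowest in the 3 libraries with the most Ldha. Pfkm remained the main phosphofructokinase at 79.4 to 91.9% of the 3 forms.

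**Figure D5:**
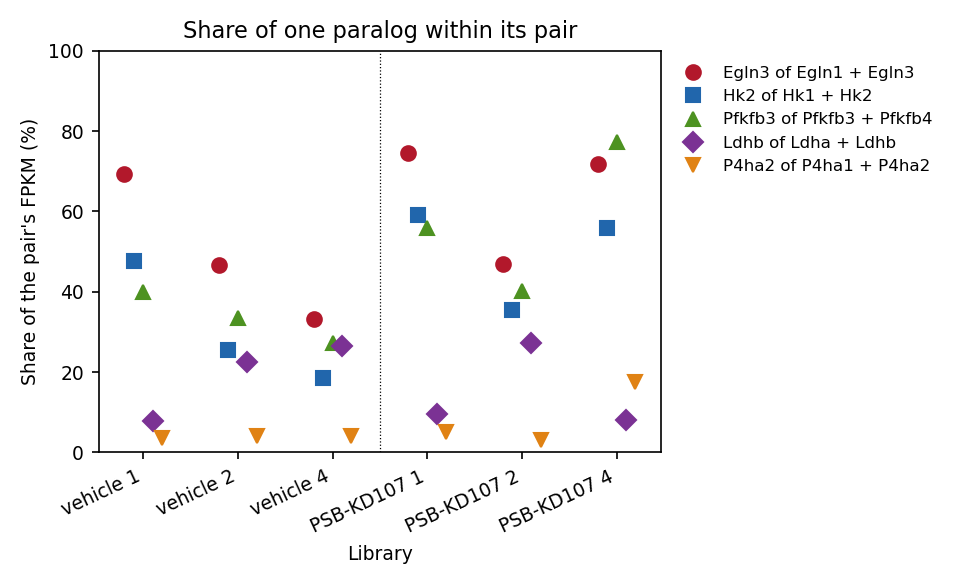
Share of 1 gene in the summed FPKM of its pair (y axis, percent) in each library (x axis), for 5 pairs. Pfkfb3 is the pair whose treated shares (40.3% and above) all exceed its vehicle shares (39.8% and below), and the shares of Hk2, Egln3 and Ldhb in vehicle library 1 resemble those of PSB-KD107 libraries 1 and 4 more than those of vehicle libraries 2 and 4.

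The rest of the pathway was described from lists of genes outside the members, of which edgeR called 0, as it did over the whole table. DESeq2 called 0 of 12 HIF machinery genes and, as higher, 4 of 28 further HIF targets. It also called 3 of 23 other glycolytic, pyruvate and lactate genes and 1 of 3 gluconeogenic genes as higher, against 2.46% of all genes. Of 12 tested components of the HIF machinery, the fitted change was positive for 5 and negative for 7 (median -0.01 on the log2 scale). Cited2, an inducible inhibitor that competes with HIF for its coactivators, was the 1 of 12 without overlap (9.2% of all genes were higher without overlap), at 103, 111 and 99.5 CPM in vehicle and 129, 123 and 136 CPM in treated cells. Arnt and Vhl had log2 fold changes of -0.01 and -0.18. The hydroxylase Egln2 had one of 0.21 (SE 0.13), and the alpha subunit Epas1, at 0.16 to 1.23 CPM in all libraries, one of 1.16 (SE 0.61). Of 28 further HIF targets, 27 were higher and 1 lower, the median was 0.84, 7 did not overlap (against the same 9.2% of all genes), and treated library 4 was the highest of 6 for 21 (against 25.7% of all genes). Ero1l, an oxidase of disulfide bond formation in the endoplasmic reticulum, read 26.4, 14.4 and 13.1 CPM in vehicle and 94.8, 28.6 and 238 CPM in treated cells. Hmox1, the heme oxygenase that also answers to oxidative stress, had another order of libraries, with 36.3, 37.4 and 30.6 CPM in vehicle and 169, 100.0 and 55.7 CPM in treated cells. The glycoprotein hormone Stc2 read 12.1, 16.3 and 9.77 CPM in vehicle and 17.2, 25.2 and 75.6 CPM in treated cells. Nos2, inducible nitric oxide synthase, had 1, 3 and 1 counts in vehicle and 24, 11 and 318 counts in treated cells. Each of these 4 genes was higher in every treated library than in any vehicle library, and treated library 4 held the top value for 3 of them. The other 3 of the 7 without overlap, Plin2, Gbe1 and Hilpda, were highest in treated library 1, as was Hmox1.

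Of 23 tested genes for other glycolytic isozymes and for pyruvate and lactate handling, 16 had a positive fitted change and 7 a negative one (median 0.27 on the log2 scale), treated library 4 was the highest for 6 (against 25.7% of all genes), and 5 were higher without overlap (against 9.2%). Slc16a1 (MCT1), a lactate and ketone body carrier, read 51.8, 71.5 and 69.0 CPM in vehicle and 100.0, 117 and 118 CPM in treated cells. Pdk4, another kinase of pyruvate dehydrogenase and a known target of fatty acid signals, read 49.7, 47.3 and 42.1 CPM in vehicle and 76.5, 64.3 and 97.9 CPM in treated cells. For both genes all treated libraries, library 2 included, lay above all vehicle libraries. The pyruvate dehydrogenase phosphatase Pdp2 (log2 fold change 1.03, SE 0.25) and the subunit Pdha1 (0.20, SE 0.09) did not overlap either. Of 3 tested gluconeogenic genes, mitochondrial Pck2 read 14.5, 7.53 and 5.96 CPM in vehicle and 53.4, 27.3 and 35.7 CPM in treated cells, while Pcx and G6pc3 had log2 fold changes of -0.30 and -0.16.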

How the data were processed

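RNA of 3 vehicle and 3 PSB-KD107-treated mdx myoblast cultures was sequenced in paired-end mode. Per the labels and the study's methods, reads were aligned with STAR to mm10 (GRCm38), and the authors deposited raw counts per gene, with no normalization. The counting program, annotation and strand setting are not given in the sources used here, so reads of overlapping genes cannot be told apart. Libraries numbered 4 match no single sample record and were assigned by group only.

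Counts were tested in R 4.3.3 with edgeR 4.0.16 (filterByExpr default, TMM factors, quasi-likelihood test, Benjamini-Hochberg adjustment over all 14165 genes tested, threshold 0.05) and, as an alternative, DESeq2 1.42.0. P-values set the difference between groups against the spread between libraries within groups. The main test had no block, so differences between mice and between cultures are not separated in that spread. CPM were scaled by TMM. FPKM used merged exons of GENCODE M21, which also gave gene coordinates. Tables were handled in Python 3.11.15 with pandas 2.3.3. The members and the further lists were chosen with earlier results of these data known, so no list was tested. Values per library are given for members without overlap, the 5 with the largest fitted change and the main regulators and enzymes. From each further list up to 4 genes without overlap are named. Alternatives were RLE factors, no filter, a mean FPKM of at least 1, DESeq2, a replicate block, each library left out and, for levels, the longest transcript.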

Additional observations from a re-analysis of the deposited data

How the results depend on the processing

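Under the alternatives tried, the enzymes' and the other members' medians stayed positive. RLE factors, no filter, a mean FPKM of at least 1 and DESeq2 gave an enzymes' median of 0.73 each and other members' medians of 1.37 to 1.41. DESeq2 called 480 genes and 7 members where edgeR's quasi-likelihood test called 0, and edgeR without a filter on low counts called 8 genes and 0 members. When single libraries were left out, the median log2 fold change ranged from 0.38 to 0.93 for the enzymes and from 0.48 to 2.05 for the other members, and 0 genes and 0 members were called. Libraries of the same number correlated at 0.63, 0.50 and -0.13 for numbers 1, 2 and 4 in their deviations from the group means. Between different numbers the correlation ran from -0.70 (vehicle 1, treated 2) to 0.64 (vehicle 4, treated 2), with a mean of -0.17. The numbers were thus not shown to pair the libraries. With the replicate block, medians were 0.70 and 1.00, with 0 genes and 0 members called. Leaving out treated library 4 changed the sign of 5 members and left 8 at a 2-fold difference or more, and leaving out treated library 2 or vehicle library 1 left 24. These are counts of members with no share of all genes beside them. The log2 fold changes without treated library 4 included 0.20 for Ankrd37, 0.21 for Egln1, 0.18 for Mxi1, 0.48 for Bnip3 and -0.08 for P4ha2. That of Aldoc was 2.32 with the block, 2.89 without vehicle library 1 and 1.65 without vehicle library 4. The members' median level in vehicle was 14.2 FPKM, and 17.8 FPKM with the longest transcript as length, with the order of genes shifted by at most 4 places. Adm had as few as 2 counts in a vehicle library, where counting error is large.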

Other observations

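The order of the libraries within each group was set side by side across genes, as a description. Over the 36 members, the log2 ratio of vehicle library 1 to the mean of vehicle libraries 2 and 4 had a Spearman correlation of 0.81 with the log2 ratio of treated library 1 to treated library 2. Over the genes tested with counts in these libraries the same correlation was 0.77, so the likeness was not particular to the members. The correlation with the ratio of treated library 4 to treated library 2 was lower, at 0.53 over the members and 0.40 over the genes tested. Genes are not independent replicates, and each axis rests on the same 2 or 3 libraries. Egln3, Ak4, Slc16a3 and Pfkp, chosen after their values were seen, had ratios of vehicle library 1 to the mean of the other vehicle libraries of 3.93, 8.59, 7.34 and 4.92.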
